A study of Mus musculus with 112 samples.

Results

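Epiblasts of early bud mouse embryos were compared with epiblasts of late streak embryos, 3 arrays a side, chosen by their stage labels. These 6 arrays are part of 17 arrays of amplified epiblast RNA in a series of 112 Illumina bead arrays that otherwise measured cultured cells. The epiblast, called ectoderm as gastrulation ends, is the layer of the embryo from which the body forms. Late streak embryos were placed at embryonic day 7.0 to 7.5 and early bud embryos, named for the allantoic bud, at embryonic day 7.5 to 8.0. All were of the R1-129 strain, with no genotype or treatment that set the groups apart, and tissue was freed with trypsin and by dissection. Each array held RNA described as that of a single epiblast or ectoderm, except the early bud array 3, whose description says cultured cell while its other labels say dissected tissue. All RNA went through an extra round of amplification before labelling. These are bulk samples of the whole layer, so fewer cells of a type and less RNA per cell cannot be told apart.

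Between these stages the embryo leaves gastrulation. As background, Pou5f1, Nodal and Fgf signals keep epiblast cells pluripotent and drive cells through the primitive streak, and Wnt and Fgf signals keep a pool of progenitors at the caudal end. As the bud forms, retinoic acid made by mesoderm begins to act on the ectoderm, the 3′ Hox genes are switched on from the posterior end, and the ectoderm is divided into neural plate, surface ectoderm and the border between them.

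On each array 23.5% to 28.8% of the 45281 probes were detected, with 23.5% to 24.9% on the early bud and 24.7% to 28.8% on the late streak arrays. Across the 9211 genes tested, early bud arrays correlated with each other at r = 0.965 to 0.98 and late streak arrays at 0.944 to 0.97, against 0.81 to 0.888 between the stages; these are correlations across genes, which are not independent replicates. The early bud array described as cultured correlated with the other early bud arrays at 0.965 to 0.98, and those correlated with each other at 0.977. A fit set the bud stage arrays described as cultured (1 early bud, 1 late bud) against the 4 described as dissected. It passed 0 of 8454 genes in limma, and the smallest adjusted p was 0.327. An unadjusted p under 0.05 was found for 355 genes, a share below 0.05 of those tested. Without a filter on detection 20 genes passed. Each epiblast array detected 7 to 9 of the 12 genes listed for the postimplantation epiblast. Globin genes and Pecam1 (blood and vessels), Afp and Apoa4 (visceral endoderm), Elf5 and Hand1 (extraembryonic lineages) and Col1a1, Col1a2 and Col3a1 (fibroblasts) were detected on none of the 6 arrays. Other members of these lists were detected. Each array detected 2 to 4 of 17 blood and endothelium genes and 4 to 9 of 18 visceral endoderm genes. It also detected 5 to 6 of 14 extraembryonic ectoderm genes and 2 to 5 of 13 fibroblast genes. Sex-linked genes differed between arrays of a stage: log2 intensities of Xist, which silences an X chromosome in females, were 4.41, 11.13 and 9.37 on the late streak arrays, and those of the Y-linked Eif2s3y were 9.12, 4.67 and 8.55. On the early bud arrays Xist was at 10.08 on array 1 and 9.85 on array 3, lower but detected on array 2, and Eif2s3y was at 9.82, 9.72 and 9.93. Late streak array 3 and all early bud arrays thus held signal of both genes, although each is described as from a single embryo or culture. Neither gene passed the test.

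Of 9211 genes tested, 3875 passed limma's test at an adjusted p under 0.05, which is 42.1%: 2110 (22.9%) were higher and 1765 (19.2%) lower in early bud epiblasts. These 2 shares stand beside the counts of each list below. Late streak minus late midstreak had a median of -0.37 among the higher genes and 0.36 among the lower. It was 0.23 among genes that did not pass. The calls rest on the same late streak arrays, which by itself draws the medians of the higher and lower genes apart. These medians are thus a description only, and the part of this difference in the calls was not tested. Differences are given as log2 fold changes, early bud minus late streak, with standard errors from a fit of all 17 epiblast arrays in 7 stages, and the median over all genes tested was 0.09. Without the early bud array described as cultured, 3041 genes passed, 2988 of them in the same direction as before. The split between higher and lower genes depended on the scaling: with each array scaled to its median in place of quantile normalization, 830 genes were higher and 2988 lower, and the median difference over all genes was -0.39. No gene passed in opposite directions under these scalings. Among the genes named below, Otx2, Lin28b, Mef2c, Dlx3, Mest, Nrarp, Dnmt1, Cdkn1b, Etv1, Fezf2, Ccnb1, Cdh1 and Ifitm1 passed as higher but not with median scaling.

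Several pluripotency genes fell, Pou5f1 and Utf1 among them. Of 18 such genes on the array 13 were tested, and 7 fell, 2 rose and 4 did not pass, with a median of -0.50; 1 of the 7 is Sox2, whose probes disagree, and another is L1td1 (-0.50, adjusted p = 0.0467 in limma), whose call was lost in 11 of 19 alternatives. Without early bud array 3, 6 fell and 1 rose. Pou5f1, which encodes the pluripotency factor Oct4, had log2 intensities of 11.53, 10.68 and 11.68 in late streak epiblasts and of 7.84, 8.94 and 6.90 in early bud epiblasts. The stages did not overlap, and the probe was detected on 2 of the 3 early bud arrays. Its log2 fold change was -3.40 ± 0.59 (limma, adjusted p = 0.000261, n = 3 and 3), and a second Pou5f1 probe fell by 2.04. Utf1, a chromatin factor of pluripotent cells, stood at 9.56, 9.44 and 9.13 and then at 6.08, 7.45 and 6.00, a change of -2.87 ± 0.38 (adjusted p = 2.61e-05), and was detected on 1 early bud array. Dppa4, another gene of pluripotent cells, was detected on all late streak arrays at 7.30, 7.28 and 6.71 and on no early bud array, so that it was at least 1.22-fold lower. Smaller falls were those of the co-repressor Trim28 (-0.93) and the amino acid transporter Slc7a3 (-0.75). Nanog did not follow: it read 10.42, 9.30 and 10.11 and then 10.81, 10.19 and 10.99, and did not pass (0.72, adjusted p = 0.0796). Sall4, a partner of Oct4, lay at 12.75, 13.15 and 12.64 and then at 12.99, 13.17 and 12.98, and did not pass on this probe, while another probe rose by 1.33. Lin28a, which blocks let-7 maturation, was 1.18 ± 0.23 higher (adjusted p = 0.000588) on its most intense probe, and its relative Lin28b was 1.07 higher, a call that median scaling ended.

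Genes of the epiblast after implantation split. Of 9 tested 4 fell and 3 rose, and 1 rose with median scaling or without early bud array 3. Fgf5, an FGF ligand that marks this tissue, fell from 11.67, 11.78 and 11.34 to 8.98, 10.04 and 9.02, a change of -2.25 ± 0.24 (adjusted p = 5.33e-06). Pou3f1, a POU factor of epiblast and neural plate, fell by 1.45. Sox4, a SoxC factor, fell by 1.65, from 11.27, 11.23 and 10.92 to 9.46, 9.57 and 9.44. Otx2 (0.67) and Dnmt3b (0.34), a homeobox gene of the anterior epiblast and a DNA methyltransferase, passed with all arrays but not without early bud array 3. Late midstreak means were 11.70 for Pou5f1, 9.91 for Utf1 and 11.04 for Fgf5, and late bud means 7.95, 5.16 and 9.34, so that these genes were high at both streak stages and low at both bud stages.

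**Figure D1:**
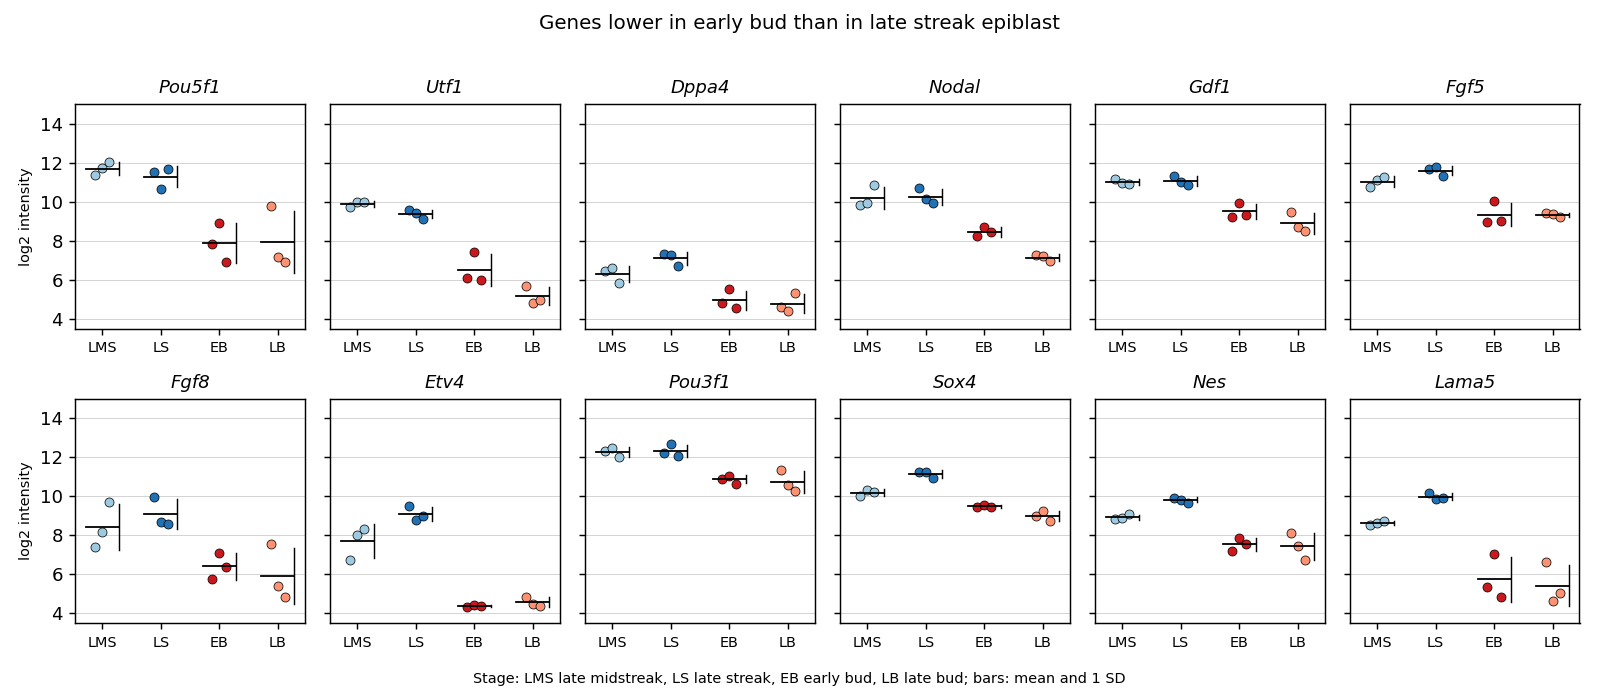
Log2 intensity (vertical axis) of 12 genes that were lower in early bud (EB) than late streak (LS) epiblasts, with late midstreak (LMS) and late bud (LB) arrays beside them; points are arrays, bars the mean and 1 SD (n = 3 each). In each gene the 3 early bud points lie below the 3 late streak points, with Etv4 at 4.33 to 4.44 in early bud.

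Among Nodal signalling genes the ligands Nodal and Gdf1 fell. Of 9 tested 4 fell and 2 rose, and 3 fell and 1 rose without early bud array 3. Nodal, the TGF-beta ligand that induces the streak, fell from 10.73, 10.13 and 9.95 to 8.23, 8.72 and 8.44, a change of -1.81 ± 0.26 (adjusted p = 6.05e-05). Gdf1, a ligand that pairs with Nodal, fell from 11.34, 10.99 and 10.87 to 9.24, 9.94 and 9.35 (-1.56 ± 0.25). The groups did not overlap for either gene, as was so for 54.5% of all genes tested. Acvr2b, a receptor for both, fell by 0.78, whereas Smad3, a signal transducer of the pathway, was 1.22 ± 0.18 higher, moving from 9.44, 9.05 and 9.26 to 10.47, 10.35 and 10.59. Smad2 did not pass (0.11). The ligand Gdf3 did not pass either, at -0.28.

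The FGF ligands Fgf5 and Fgf8 fell, as did Etv4, Etv5 and Dusp4, known targets of FGF signalling. Of 11 tested 5 fell and 2 rose. The ligands Fgf15 (-0.47) and Fgf17 (0.57) and the inhibitor Spred1 (0.37) did not pass, and Etv1, an ETS factor, was higher by 0.65, a call lost in 10 of 19 alternatives, median scaling and the fit without early bud array 3 among them. Etv4, an ETS factor induced by FGF signalling, stood at 9.49, 8.79 and 8.99 in late streak epiblasts and at 4.33, 4.44 and 4.36, below detection, on every early bud array. It was at least 4.84-fold lower (fitted adjusted p = 5.75e-07). Its relative Etv5 read 7.74, 7.27 and 8.59 against 4.71, 4.63 and 6.12, detected on no early bud array, and was at least 2.08-fold lower by the probe used. Another Etv5 probe also passed as lower and was detected on no early bud array. Fgf8, the ligand that moves cells out of the streak, fell from 9.97, 8.71 and 8.57 to 5.75, 7.09 and 6.38 (-2.67 ± 0.64, adjusted p = 0.003) and was detected on 1 early bud array. Dusp4, an ERK phosphatase, fell by 1.12, and all 3 of its tested probes fell. Dusp6, another such phosphatase, had a difference of -0.66 that did not pass (adjusted p = 0.115). The receptor Fgfr2 rose from 8.60, 9.12 and 9.48 to 10.73, 10.57 and 10.83 (1.64 ± 0.24).

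Promoters of Nodal and Fgf5 are shown because these 2 ligands were lower on each early bud array than on any late streak array. The windows of 300 bases span the annotated gene start in RefSeq GRCm38.p6; Fgf5 lies at chr5:98253934-98254233 on the plus strand and Nodal at chr10:61417722-61418021 on the plus strand. Capitals mark the TATA box (TATAAA) and the CCAAT box (CCAAT), searched on both strands. Also searched were a nuclear receptor motif (AGGTCA), an ETS motif (CCGGAAGT) and a POU octamer (ATGCAAAT).
Fgf5: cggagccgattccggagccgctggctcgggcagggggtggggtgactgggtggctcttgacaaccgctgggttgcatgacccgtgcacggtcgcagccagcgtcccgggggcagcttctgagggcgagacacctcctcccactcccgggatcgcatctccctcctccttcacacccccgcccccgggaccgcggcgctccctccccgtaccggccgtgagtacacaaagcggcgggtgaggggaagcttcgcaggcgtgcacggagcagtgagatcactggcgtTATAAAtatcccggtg
Nodal: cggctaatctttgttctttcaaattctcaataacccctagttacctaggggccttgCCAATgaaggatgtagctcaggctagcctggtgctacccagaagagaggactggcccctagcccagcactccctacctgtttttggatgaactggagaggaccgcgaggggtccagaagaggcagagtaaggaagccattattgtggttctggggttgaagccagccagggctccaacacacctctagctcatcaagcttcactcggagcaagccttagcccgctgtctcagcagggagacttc
The TATA box was found in Fgf5 and the CCAAT box in Nodal, and none of the other motifs in either. Of 32851 RefSeq promoters of this length, 13.6% held TATAAA, 37.4% CCAAT, 16.3% AGGTCA, 3.89% CCGGAAGT and 1.74% ATGCAAAT. A match is a description of these letters only.

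Primitive streak genes other than these ligands did not pass. Of 10 listed streak genes tested 2 fell, Fgf8 and Nodal, and 8 did not pass. T, the Brachyury factor of the streak and notochord, read 9.87, 8.87 and 9.28 in late streak and 8.95, 9.79 and 9.32 in early bud epiblasts, with a difference of 0.01 ± 0.94. Eomes (0.37), Evx1 (-0.59) and Mesp1 (-0.92), a factor of the earliest mesoderm, overlapped between the stages. Late streak array 2 was the lowest of its group in some genes of streak, node and endoderm, with Lhx1 at 4.59 against 8.68 and 7.43. It had Sox17 at 4.76 against 7.11 and 7.01. The same held for Msx1, a gene of the neural plate border list, at 5.95 against 8.12 and 7.96. The summed intensity of the 15 streak genes ranged from 3741 to 8577 over the late streak arrays and from 3353 to 5520 over the early bud arrays. Node and endoderm genes gave 1 fall, Nodal, among 7 tested, and mesoderm genes 1 rise and 1 fall among 6. Mef2c, a heart and muscle factor, was detected on no late streak array and was at least 1.60-fold higher, a call that median scaling ended, and Tcf15, a factor of paraxial mesoderm and epiblast, was detected on no early bud array and was at least 2.38-fold lower. Of genes of blood and endothelium 4 were tested and none of these passed: Lmo2 (1.16), Klf1 (0.56), Etv2 (0.27) and Kdr (-0.06).

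Some genes of the retinoic acid list rose, as did a 3′ Hox gene. Of 9 tested retinoic acid genes 5 rose, 0 fell and 4 did not pass, with a median of 1.02. Of the 9, 3 were detected on no late streak array and so passed the filter by the early bud arrays alone. Hoxb2, a hindbrain Hox gene, rose from 6.70, 6.43 and 7.74 to 8.73, 8.36 and 9.51 (1.91 ± 0.36). Meis1, a homeodomain partner of Hox proteins, went from 5.41, 4.54 and 5.74, below detection, to 8.31, 7.31 and 8.04, at least 2.68-fold higher. Meis2, a second such partner, rose by 1.87 ± 0.34, from 8.54, 8.14 and 9.31 to 10.92, 10.02 and 10.66. Tshz1, a zinc finger factor of the trunk, was detected on no late streak array and on all early bud arrays, at 8.36, 7.19 and 9.36, at least 3.57-fold higher. The retinoic acid receptor Rarg (-0.10), the degrading enzyme Cyp26a1 (0.84) and the binding proteins Crabp1 (0.37) and Crabp2 (0.32) did not pass. Hoxa13 was detected on all 6 arrays at 6.87 to 7.63 and did not pass.

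**Figure D2:**
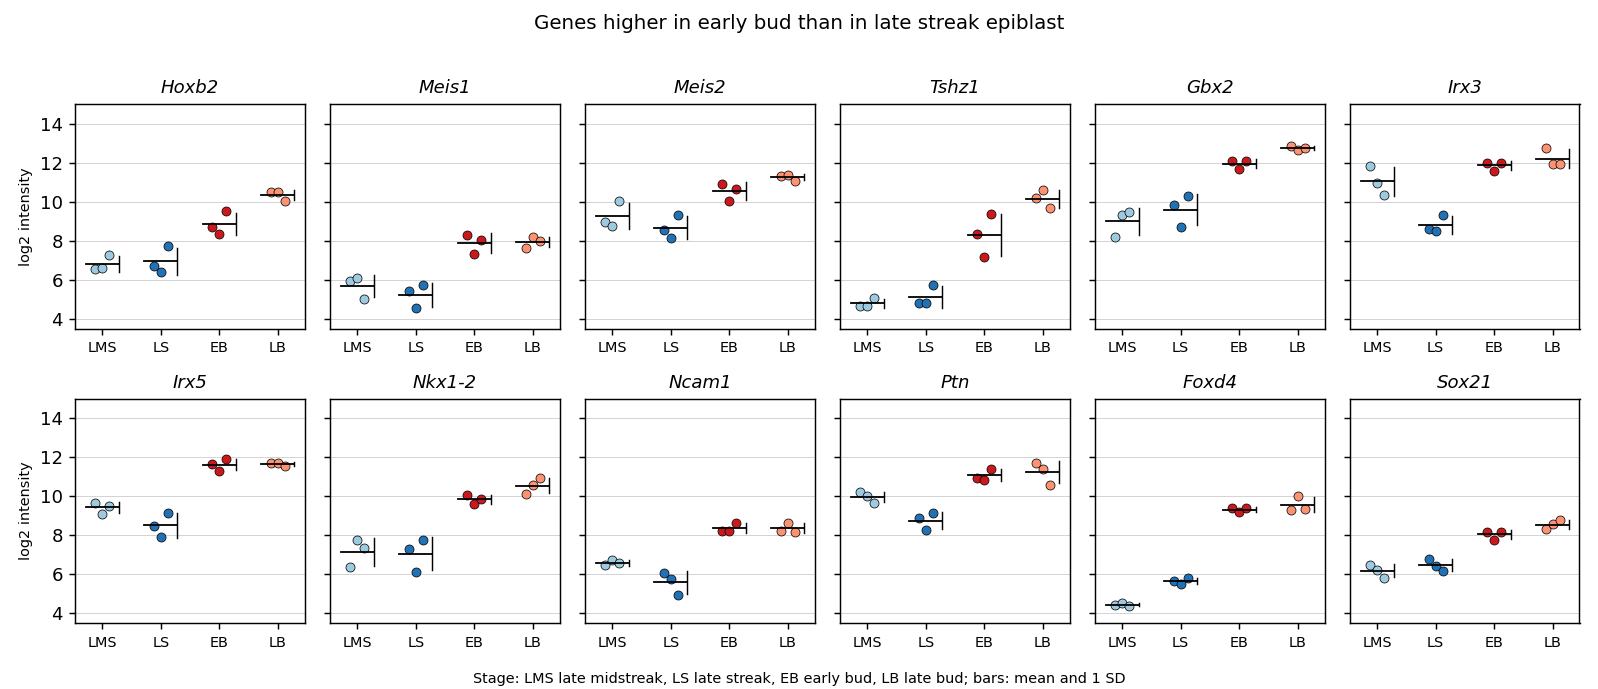
Log2 intensity (vertical axis) of 12 genes that were higher in early bud (EB) than late streak (LS) epiblasts, with late midstreak (LMS) and late bud (LB) arrays beside them; points are arrays, bars the mean and 1 SD (n = 3 each). Foxd4 lay at 5.52 to 5.82 in late streak and at 9.19 to 9.40 in early bud epiblasts.

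Genes of the posterior neural plate were the list with the highest median among the lists with at least 5 genes tested, 2.35, from 4 that rose and 1 that fell of 5 tested. Irx3 and Irx5, homeobox genes of the neural plate, moved together: Irx3 from 8.60, 8.48 and 9.31 to 11.60 or more on each early bud array (3.07 ± 0.43, adjusted p = 4.64e-05) and Irx5 from 8.50, 7.90 and 9.14 to 11.66, 11.32 and 11.91 (3.12 ± 0.26, adjusted p = 8.57e-07). Late midstreak embryos had a mean Irx3 level of 11.05, above every late streak array, and a mean Irx5 level of 9.43. Gbx2, which sets the border between midbrain and hindbrain, rose from 9.82, 8.72 and 10.27 to 12.12, 11.67 and 12.07 (2.35 ± 0.36). Nkx6-1, a ventral neural tube gene, was detected on 1 late streak array and on all early bud arrays, and rose by 1.80. Fst, the activin antagonist follistatin, fell by 1.52, a call lost without early bud array 1 or 3 and without late streak array 1 or 3. General neural genes went both ways, 4 up and 4 down of 9. The 4 up include Irx3, counted above as well. The 4 down include Sox2, whose probes disagree, and Hes6, whose call was lost in 6 of 19 alternatives. Ncam1, the neural cell adhesion molecule, was not detected in late streak epiblasts and was at 8.21, 8.22 and 8.66 in early bud epiblasts, at least 3.73-fold higher. Ptn, the growth factor pleiotrophin, rose from 8.89, 8.26 and 9.13 to 10.96, 10.86 and 11.42 (2.32 ± 0.32), and Sox21 by 1.58. Nes, which encodes the neural progenitor filament nestin, fell from 9.94, 9.84 and 9.68 to 7.21, 7.89 and 7.56 (-2.27 ± 0.27, adjusted p = 1.24e-05).

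Promoters of Irx3 and Gbx2 are shown as those of neural plate genes that rose together. By the same table Irx3 lies at chr8:91801605-91801904 and Gbx2 at chr1:89931127-89931426, both on the minus strand.
Irx3: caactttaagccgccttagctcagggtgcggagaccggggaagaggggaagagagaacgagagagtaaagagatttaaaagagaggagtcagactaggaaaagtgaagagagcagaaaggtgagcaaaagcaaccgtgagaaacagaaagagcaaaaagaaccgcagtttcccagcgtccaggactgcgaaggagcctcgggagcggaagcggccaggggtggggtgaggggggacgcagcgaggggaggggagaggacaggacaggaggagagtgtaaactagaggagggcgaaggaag
Gbx2: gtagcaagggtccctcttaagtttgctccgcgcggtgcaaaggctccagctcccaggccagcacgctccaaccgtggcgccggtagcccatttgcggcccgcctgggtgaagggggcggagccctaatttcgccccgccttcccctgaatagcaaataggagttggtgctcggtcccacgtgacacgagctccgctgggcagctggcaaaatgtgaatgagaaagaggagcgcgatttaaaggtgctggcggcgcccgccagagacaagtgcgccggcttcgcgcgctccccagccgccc
None of the 5 motifs above was found in either window.

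Some caudal progenitor and Wnt genes rose, and fewer did in other fits. Of 12 tested caudal progenitor genes 4 rose and 1 fell, beside 22.9% higher and 19.2% lower over all genes tested. With median scaling 2 of the 12 rose, while higher calls over all genes went from 2110 to 830. Nkx1-2, which marks the caudal lateral epiblast, rose from 7.33, 6.12 and 7.76 to 10.07, 9.63 and 9.85 (2.78 ± 0.39, adjusted p = 4.46e-05), and its second probe rose by 1.37. Cdx2, a caudal homeobox gene, was at 9.41, 8.05 and 11.24 and then at 11.56, 11.03 and 11.58, so that late streak array 3 lay among the early bud arrays, and passed (1.82 ± 0.50, adjusted p = 0.00777). Of 14 tested Wnt genes 7 rose and 1 fell. Without early bud array 3 only 3 of the Wnt genes rose, and 2 did with median scaling. Notum, a Wnt inhibitor and target, was detected on no late streak array and was at least 2.57-fold higher, and Sfrp2, another inhibitor, rose by 1.52. The ligands Wnt3a (1.37, adjusted p = 0.218) and Wnt8a (0.57) and the target Axin2 (-0.35) did not pass, and Wnt5b fell by 1.55, a call lost without early bud array 3 or late streak array 1.

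Surface ectoderm and neural plate border genes gave 4 rises and 1 fall among 10 tested. Tfap2a, an AP-2 factor of both tissues, rose from 6.33, 6.57 and 7.19 to 9.02, 8.43 and 9.32 (2.23 ± 0.52, adjusted p = 0.00268) and was detected on 1 late streak array. Tfap2c rose by 1.47, Dlx3 by 1.46 and Grhl2, a factor of epithelial ectoderm, by 1.36, with no overlap between the stages; the Dlx3 call was lost with median scaling. Krt7, a keratin, fell by 0.93, a call lost without early bud array 1 or late streak array 1, and Krt8 (-0.58) and Krt18 (0.10) did not pass. The summed intensity of the 21 border and surface genes was 3427 to 4789 on late streak and 5604 to 7723 on early bud arrays. That of 14 genes listed for extraembryonic ectoderm, which include Tfap2c and Cdx2, was 2103 to 4708 and 5664 to 7968, with 8 of the 14 (Elf5 and Ascl2 among them) detected on no array; the part of such cells in these rises was not tested. Among 10 genes of epithelia and of their loss 3 rose and 2 fell. The rises were Grhl2, Zeb2, a repressor of epithelial genes, at 1.57, and the epithelial gene Cdh1 at 0.57. The Cdh1 call was lost in 8 of 19 alternatives, median scaling and the fit without early bud array 3 among them. The falls were the claudin Cldn4 at -1.84 and Esrp1, whose call was lost in 5 of 18 alternatives. Sox9, a neural crest factor, rose by 1.22, 1 of 2 crest genes tested.

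Imprinted genes gave 6 rises and 1 fall among 12 tested. Dlk1, a Notch-like ligand, rose from 6.77, 5.27 and 6.86 to 8.70, 8.55 and 8.79 (2.38 ± 0.43), Phlda2 by 1.80, Igf2, the growth factor, by 1.64 and Peg3 by 1.37, and all 3 tested probes of Mest rose. The call of Mest by its most intense probe was lost with median scaling. With median scaling 4 rose and 3 fell. In the Notch pathway the receptor Notch1 rose by 1.81 and the feedback gene Nrarp by 1.40, of which median scaling ended the latter call, and Notch3, detected on no early bud array, was at least 1.97-fold lower; 2 of 5 tested rose and 2 fell. Among basement membrane genes 4 of 5 tested fell and 0 rose; 1 of the 4 is Hspg2, the proteoglycan perlecan, whose probes passed in opposite directions (-0.60 on the probe used, 0.88 on another) and whose call was lost in 8 of 19 alternatives. Lama5, a laminin chain, went from 10.18, 9.88 and 9.91 to 5.38, 7.02 and 4.83 (-4.24 ± 0.47, adjusted p = 7.07e-06) and was detected on 1 early bud array. Col4a1 and Col4a2, collagen IV chains, also passed as lower; Col4a1 fell by 0.65, a call lost without early bud array 1 or late streak array 2, and Col4a2, detected on no early bud array, was at least 1.29-fold lower, a call lost without early bud array 1 or 3 or late streak array 1 or 2. The immediate early gene Fos fell from 8.73, 8.36 and 7.05 to below detection, at least 2.36-fold, but was 1.32 ± 0.46 higher in late bud than late midstreak embryos (adjusted p = 0.0284). Egr1, another such gene, changed by -1.60 and by 2.10, and its fall did not pass without early bud array 1, 2 or 3 or without late streak array 1 or 2.

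Among the other lists, BMP genes gave 1 rise and 1 fall of 9 tested, Id4 at 2.59 and Id1 at -1.39, both inhibitors of basic helix-loop-helix factors. Anterior neural genes gave 3 rises of 4, the LIM factor Lhx5 at 1.74, Otx2 and Fezf2, but 1 of 4 with median scaling or without early bud array 3, where Otx2 and Fezf2 did not pass. DNA methylation genes gave 3 rises of 5 and 1 of 5 without early bud array 3. Of the 3, Dnmt3b has probes that disagree, the maintenance methyltransferase Dnmt1 (0.45) lost its call in 8 of 19 alternatives, median scaling and the fit without early bud array 3 among them, and its partner Uhrf1 stood at 0.68. Genes of the Myc and Lin28 group gave 4 rises and 2 falls of 7, and guidance genes 2 and 2 of 9, with the receptor Epha1 at -3.35. Cell cycle inhibitors gave 2 rises and 1 fall of 8, and stress genes 1 rise and 3 falls of 9. Visceral endoderm genes gave 2 rises and 1 fall of 6, genes of extraembryonic ectoderm 2 rises of 6, of extraembryonic mesoderm 1 of 2 and of germ cells 2 of 5, and 4 fibroblast genes and 3 sex-linked genes did not pass. With median scaling 0 of the cell cycle inhibitors, guidance, visceral endoderm and extraembryonic mesoderm genes rose, 1 of the germ cell genes and 2 of the Myc and Lin28 group did. Without early bud array 3 the rises were 1 in each of the guidance, visceral endoderm and germ cell lists and 0 for extraembryonic mesoderm.

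**Figure D3:**
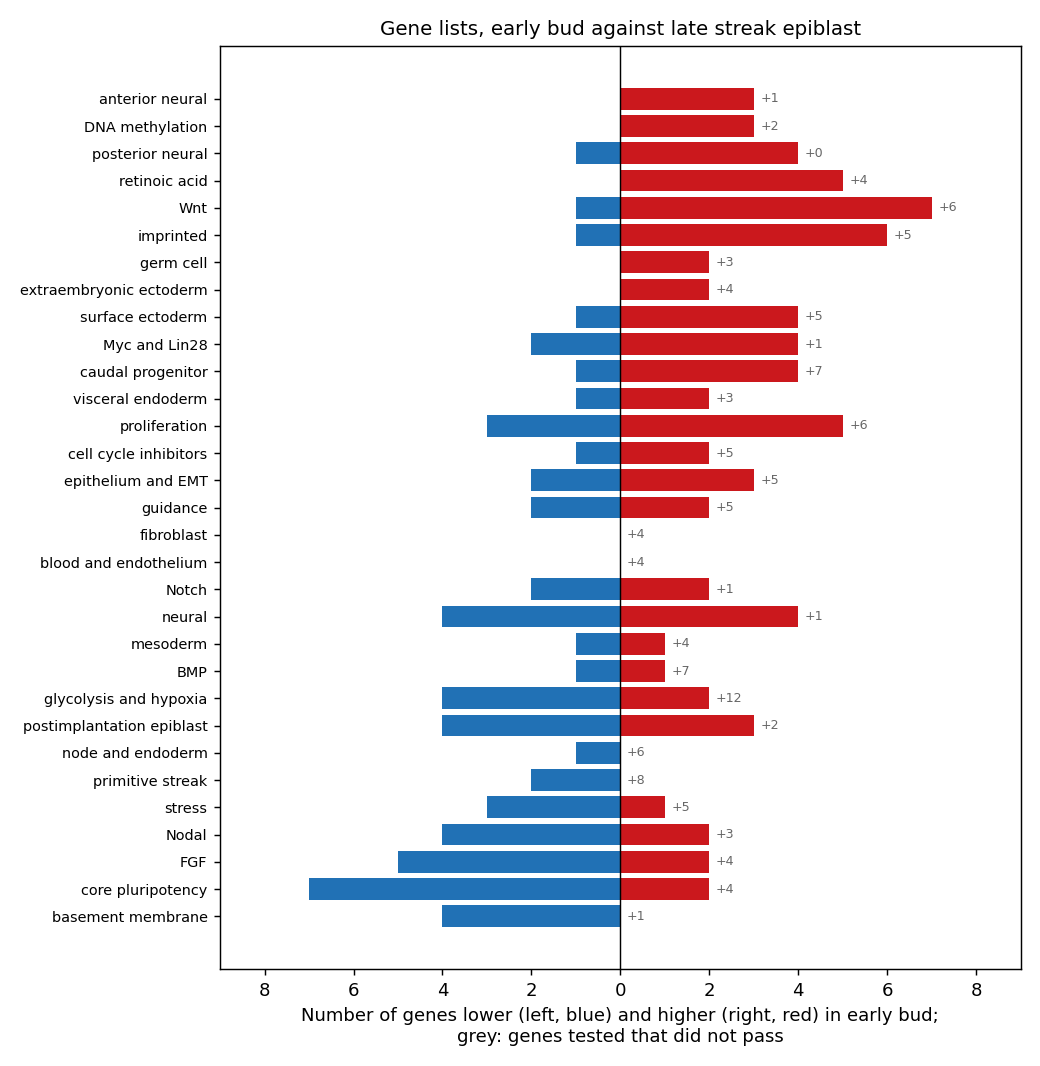
Number of genes of each list that passed as lower (left, blue) or higher (right, red) in early bud epiblasts, with the number tested that did not pass as grey figures; lists with fewer than 4 genes tested are left out. Core pluripotency had 7 lower and 2 higher, and the Wnt list 1 lower and 7 higher.

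The genes at both ends of the range of differences were mostly outside these lists. Among the 12 highest were LOC100044289, Gal, Rps23rg1, Cenpf, Pisd-ps2, G2e3, Foxd4, Sfr1, Epm2aip1, Defa31 and 2810006K23Rik, with log2 fold changes of 3.49 to 5.10. Gal, which encodes the neuropeptide galanin, rose from 4.59, 4.67 and 6.63 to 9.45, 8.92 and 10.07 (4.18 ± 0.49). Foxd4, a forkhead factor of the early neural plate, was detected on no late streak array and on all early bud arrays at 9.40, 9.19 and 9.39, at least 7.28-fold higher, with a late midstreak mean of 4.45 and a late bud mean of 9.57. For Cenpf, a centromere protein of dividing cells, the late streak arrays read 5.22, 5.02 and 5.44, below detection. Its late midstreak mean was 10.12 and its early bud values were 9.53, 8.94 and 9.57. G2e3 had late midstreak and late streak means of 10.38 and 5.70, and Sfr1 of 8.98 and 4.89. The late streak arrays were not alone in these low values. The only array of the stage labelled OB, between late streak and early bud, read 5.83 for Cenpf, 6.09 for G2e3 and 4.81 for Sfr1. Hsp90aa1, a heat shock chaperone, also read lower on late streak arrays (9.27, 9.07 and 8.59) than its late midstreak mean of 11.58, and was 2.59 ± 0.22 higher in early bud epiblasts on the probe used and 2.69 on another. Cdkn1b, which encodes the cell cycle inhibitor p27, was detected on no late streak array, was at least 2.12-fold higher in early bud epiblasts, a call that median scaling ended, and differed by -2.08 between late midstreak and late bud epiblasts, where it passed as lower.

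The 12 lowest were LOC100046853, Fgd1, Stip1, LOC383981, Eno1, Nt5dc2, Scand1, Mrpl4, ORF61, 2510010K19RIK, Myg1 and Spr, with fitted log2 fold changes of -6.15 to -4.81. Eno1, the glycolytic enzyme enolase, fell from 13.40, 11.85 and 13.06 to 6.97, 7.59 and 7.15 (-5.53 ± 0.76), and Stip1, an Hsp90 co-chaperone, from 11.70, 10.88 and 11.50 to 5.63, 7.14 and 4.41. Fgd1, a guanine nucleotide exchange factor, was at least 10.2-fold lower and Mrpl4, a mitochondrial ribosomal protein, at least 6.31-fold lower, both undetected on every early bud array. Bounds also apply to 6 others of the 12 that no early bud array detected. Nt5dc2 was at least 12.3-fold lower, Scand1 8.94-fold, ORF61 8.32-fold, Myg1 8.03-fold, 2510010K19RIK 7.30-fold and Spr 6.53-fold. Other glycolysis genes did not share the size of the Eno1 change: Gapdh (0.14), Tpi1 (0.22), Ldha (0.29) and Pgk1 (-0.18) did not pass, Aldoa fell by 1.45 and Pkm by 0.69, and of 18 tested 4 fell and 2 rose, with 0 rises under median scaling.

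Amplification and the choice of probe moved with part of these results. In 4 EpiSC lines (epiblast stem cells) measured with and without amplification, amplified minus unamplified log2 intensity averaged -1.71 for the Eno1 probe, -1.70 for Stip1, -2.42 for Nt5dc2, -2.46 for Pou5f1 and -1.79 for Utf1. Among the rest of the 12 lowest it averaged -1.58 for LOC100046853, -2.49 for LOC383981, -2.20 for Scand1 and -1.70 for Mrpl4. It was -0.70 for ORF61, -0.87 for Myg1, -0.28 for Spr, 0.83 for Fgd1 and 2.97 for 2510010K19RIK. Among the 12 highest it ranged from -1.19 for Sfr1 to 4.78 for Rps23rg1. The probes of Fgf5, Nodal, Nes and Pou3f1, which also fell in early bud epiblasts, read higher after it, by 1.81, 1.93, 1.36 and 1.48, and that of Etv4 differed by -0.19. Probes that amplification lowered by 2-fold or more made up 16.1% of the genes lower in early bud, 9.1% of those higher and 7.87% of those that did not pass; without them 3434 of 8314 genes passed, 1936 higher and 1498 lower. The part of amplification in the differences between stages was not tested.

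Where more than 1 probe of a gene was tested, the probes did not always move the same way. Of 2272 such genes 1584 had a probe that passed, and in 158 of these (9.97%) probes passed in opposite directions. Among genes called higher with another probe tested, the other probe also passed as higher in 257 of 531 and as lower in 81; among those called lower, it also passed as lower in 286 of 447 and as higher in 51. Pou5f1, Etv5, Hmga1, Dusp4, Cenpf, G2e3, Myg1, Mest, Hsp90aa1 and Nkx1-2 had other probes that passed in the same direction. Sox2, a pluripotency and neural plate factor, cannot be given a direction: the probe used fell from 6.82, 6.86 and 6.79 to 4.49, 4.71 and 4.55, and another, detected on 2 of the 6 arrays and not tested, had a mean of 5.11 in late streak and 7.02 in early bud epiblasts. Nor can Dnmt3b, where the probe used rose by 0.34 and another fell by 2.24, or the cyclin gene Ccnd2, with 2 probes that rose by 1.74 and 1.85 and another that fell by 1.13. Top2a, the topoisomerase of dividing cells, read 8.43, 8.38 and 8.77 and then 8.76, 9.15 and 8.62 on the probe used, while another read 7.97, 6.96 and 8.13 and then 4.75, 4.77 and 4.74 and passed as lower. Epha7, an ephrin receptor of the neural plate, did not pass on the probe used (-0.31) and rose by 2.33 on another.

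**Figure D4:**
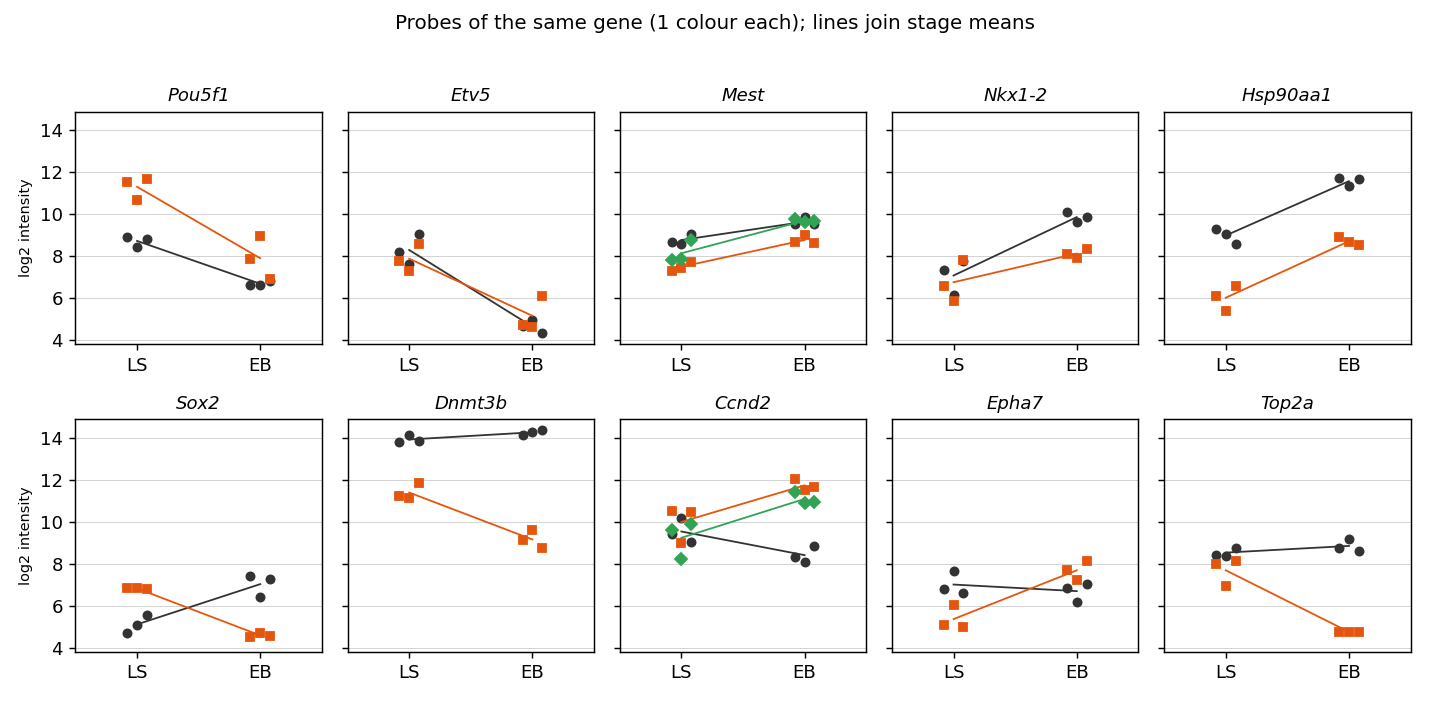
Log2 intensity (vertical axis) on late streak (LS) and early bud (EB) arrays for each probe of 10 genes, limited to probes detected on at least 2 of the 6 arrays; colours and marker shapes are probes and lines join stage means. The upper row has genes whose probes moved together, and the lower row genes whose probes did not, such as Sox2.

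The step from late midstreak to late bud epiblasts, measured on 6 other arrays, was set beside these results; the 2 comparisons share no array, only the normalization and the estimate of spread. Late bud array 3 is also described as cultured. In this step 4300 of 9384 genes passed (45.8%), 2365 higher (25.2%) and 1935 lower (20.6%) in late bud epiblasts. Of the genes higher in early bud epiblasts 1150 were also higher in late bud epiblasts, which is 54.5% of the first list and 48.6% of the second, and 34 were lower. Of those lower in early bud epiblasts 1035 were also lower in late bud epiblasts, 58.6% and 53.5% of the lists, and 16 were higher. Tshz1 was at least 15.9-fold higher in late bud epiblasts and Foxd4 at least 10.6-fold. Gbx2 differed by 3.78 ± 0.36, Nkx1-2 by 3.41 ± 0.39 and Hoxb2 by 3.53 ± 0.36, while Irx3 differed by 1.17 ± 0.43. Pou5f1 differed by -3.75 ± 0.59, Nodal by -3.06 ± 0.26 and Fgf5 by -1.69 ± 0.24. Nanog, which did not pass between late streak and early bud epiblasts, passed as higher in late bud epiblasts by 0.82.

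**Figure D5:**
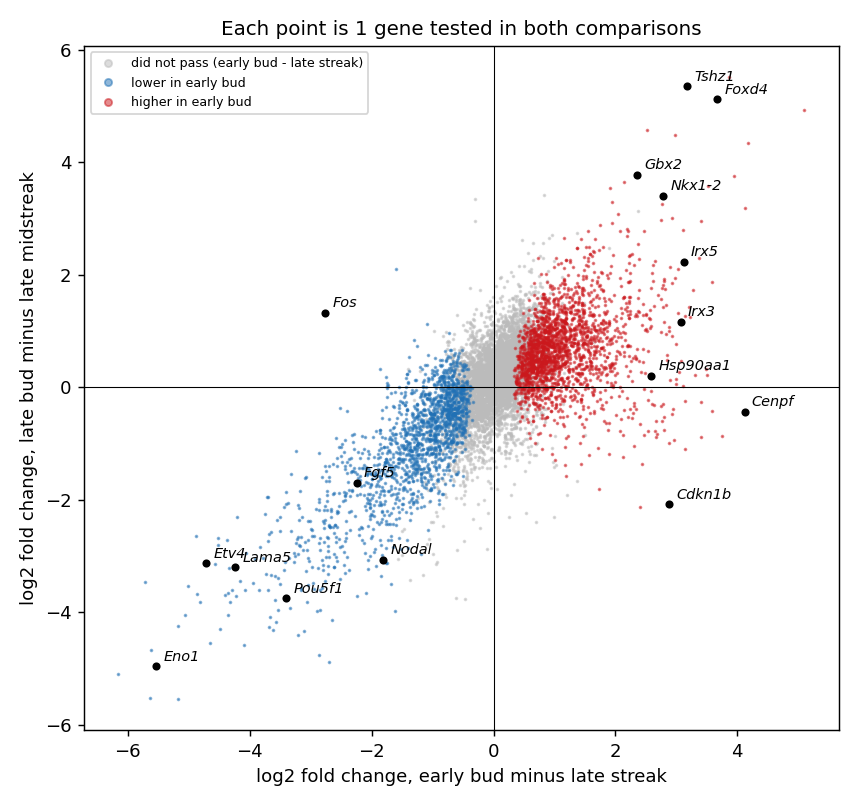
Log2 fold change from late streak to early bud (horizontal axis) and from late midstreak to late bud epiblasts (vertical axis), 1 point per gene tested in both, coloured by the call of the first comparison. Foxd4 and Tshz1 lie high in both, Pou5f1, Etv4 and Eno1 low in both, and Cenpf, Cdkn1b and Fos differ in sign.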

How the data were processed

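RNA of 112 samples was measured on Illumina bead arrays, summarised with BeadStudio per the submitters' processing notes. The deposited table gives for each of 45281 probes an intensity on a linear scale and a detection p-value per array. A deposited table of the authors' processed log2 values, made by a normalization that no source used here names, served as an alternative. The number of beads is not given, so the number of arrays limits the precision.

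Background was estimated from the detection p-values, and intensities were then quantile normalized over all arrays and put on a log2 scale after adding 16 (limma's neqc; limma 3.58.1 and R 4.3.3). Of 30774 names in the file, 15991 matched a RefSeq symbol (GRCm38.p6) and 5826 a synonym. A gene was represented by its probe with the highest mean over the 17 epiblast arrays, a choice made after seeing the data, and tested if at least 3 of the 6 arrays compared gave a detection p below 0.01; list members that passed this filter are not all members. Tests were limma's (lmFit, eBayes with trend) on the 17 epiblast arrays with 7 stages, 2-sided, Benjamini-Hochberg adjusted over all genes tested, with a limit of 0.05; ± is a standard error. Numbers 1 to 3 name embryos. The labels do not say that the embryos came from separate litters, so p-values measure the spread between these samples. Where no array of the dimmer group detected a probe, each of its arrays was set to the lowest value among its detected probes, or to the probe's own where higher, and a bound is given. Named are the 12 highest and 12 lowest passing genes, limited to those that all arrays of the higher group detected, and members of 35 lists. Genes and lists were chosen with earlier results of these data known. The fit was tested on simulated data. Some list members are not reported here.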

Additional observations from a re-analysis of the deposited data

How the results depend on the processing

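The count for early bud against late streak epiblast, 3875, stayed within 1.5 times under the alternatives run except at a minimum difference of 2-fold, where 2172 genes passed. Leaving out 1 array at a time gave 3011 to 3763 genes, and the same for late bud against late midstreak epiblasts gave 3146 to 4760, against 4300. Deviations of same-numbered early bud and late streak embryos correlated at r = -0.029, -0.138 and -0.156, beside -0.159 to 0.262 for differently numbered ones. With 3 embryos a stage these values cannot show whether a number marks anything shared, and the numbers were used as names. With the replicate number as a block 3554 and 3971 genes passed in these comparisons. For bud stage epiblasts described as cultured, 20 genes passed without a filter on detection in place of 0. Array sets found from 13482 background probes put all epiblast arrays in 1 set, so no block could be fitted. Median scaling moved the share of higher calls from 54.5% to 21.7%. Among the genes of the lists, the direction turned with the mean of all probes for Dnmt3b (-0.95), Lin28a (-0.40), Epha7 (0.53), Gadd45g (-1.51), Pgam1 (0.98), Sox11 (1.15) and Top2a (-0.83), with the deposited values for Epha7 (1.12) and Top2a (-1.33), and with the probe highest over every array of the series, an alternative chosen after seeing the data, for Ifitm1 (-0.45), Epha7 (2.33) and Top2a (-2.93). These settings differ in the probes that stand for a gene. Over the alternatives each could be run under, the 82 higher genes of the lists and names kept their call in 1339 of 1510 cases, with 3 turned, and the 61 lower ones in 1021 of 1104, with 0 turned. Probes near background limit the size of the changes given as bounds.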

Other observations

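Some gene families were looked at after the results were seen, and are given as counts only. Of 59 ribosomal protein genes tested 15 were higher and 8 lower in early bud epiblasts, of 79 respiratory chain subunits 25 and 16, of 67 mitochondrial ribosomal proteins 17 and 17, and of 28 proteasome subunits 7 and 4, against 22.9% higher and 19.2% lower over all genes tested. Of 48 histone genes 4 were higher and 13 lower. Genes of dividing cells went both ways, with 5 higher and 3 lower of 14 tested, 2 and 4 with median scaling and 3 and 2 without early bud array 3: Pcna, the sliding clamp of DNA replication, rose by 1.56 and Ccnb1, a mitotic cyclin, by 0.65, a call lost with median scaling and without late streak array 2, while Ccne1, a cyclin of entry into S phase, fell by 1.83. Hmga1, a chromatin protein of growing cells, fell from 14.03, 13.20 and 13.69 to 10.75, 11.58 and 10.15, and its second probe fell by 1.15. Apoe, a lipid carrier, was detected at 8.69, 8.74 and 8.71 on the late streak arrays and on no early bud array, and was at least 3.73-fold lower.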
